A study of Mus musculus with 18 samples.

Results

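Expression of 10 genes that encode the NF-kB subunits and the IkB proteins was followed in mouse macrophages. They were chosen by gene symbol, with earlier results of these data known, from the 24485 genes listed in each of 18 RNA-seq libraries. The 5 subunit genes are Nfkb1, Nfkb2, Rel, Rela and Relb. The 3 classical inhibitor genes are Nfkbia, Nfkbib and Nfkbie, and the 2 atypical, nuclear IkB genes are Nfkbiz and Bcl3. All 10 were expressed in every library and none was removed by a filter on low values.

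The cells were bone marrow-derived macrophages (BMDMs) grown from 3 mice, which the methods of the study describe as 12-week-old males. All animals were Il10-/- on the C57BL/6J background, a genotype that removes the cells' own interleukin 10 (IL-10) from every group, and macrophages with an intact Il10 gene were not analysed here. There were 6 groups of 3 libraries, with 1 library per mouse in each group, and the series describes the samples of a condition as matched between conditions, so replicates 1 to 3 are called mice 1 to 3 here. The unstimulated group received no treatment, the JQ1 group received (+)-JQ1 at 500 nM for 12 hours, and the IL-10 group received recombinant IL-10 at 10 ng/mL for 12 hours. These groups were then given saline buffer for 4 hours, and 3 further groups, named LPS when not pretreated and otherwise LPS + JQ1 or LPS + IL-10, were given lipopolysaccharide (LPS) at 50 ng/mL for 4 hours in its place. The labels call the LPS group untreated before stimulation, whereas the methods name a vehicle control. (+)-JQ1 blocks the bromodomains of the BET proteins, LPS is a bacterial cell wall component, and the comparisons address how BET inhibition and IL-10 alter the response of these cells to it.

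NF-kB is a family of dimeric transcription factors. In resting macrophages most dimers are held in the cytoplasm by the classical IkB proteins, and recognition of LPS by Toll-like receptor 4 activates the IkB kinases, which mark these inhibitors for degradation and free the dimers to enter the nucleus. Rela, Rel and Relb encode subunits with a transactivation domain, Nfkb1 and Nfkb2 encode the precursors of p50 and p52, and several genes of the family are themselves transcribed in response to NF-kB. Nfkbiz encodes IkB-zeta and Bcl3 encodes a nuclear IkB protein, both of which act in the nucleus with p50 or p52 rather than in cytoplasmic retention.

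Sequence upstream of the start site was available for 7 of the 10 genes, in 9 windows of 300 bases, from RefSeq on build GRCm38.p6. No window was listed for Nfkb1, Relb or Nfkbiz. The broad pattern of GGG, any 5 bases and CC was found on either strand in 8 of the 9 windows and in 50.8% of all 32851 promoter windows, so it distinguishes little. A narrower kB consensus was chosen after that share was seen and is contained within the broad pattern. It reads GGG, A or G, any base, A or T, C or T, C or T, and CC. This consensus was found in 4.51% of all windows. It was present in 7 of the 9 windows, those of Nfkbia, Nfkbie, Rel and Bcl3 and all 3 of Nfkb2, and in neither Nfkbib nor Rela. The other two windows of Nfkb2 overlap and share a match. The 250 bases upstream of the start are shown, from 5′ to 3′, for the 4 genes with a match there, and capitals mark the kB consensus on either strand. They are chr12:55492648-55492897 on the minus strand, chr17:45555450-45555699 on the plus strand, chr11:23770970-23771219 on the minus strand, and, for the first window of Nfkb2, chr19:46304487-46304736 on the plus strand.
Nfkbia: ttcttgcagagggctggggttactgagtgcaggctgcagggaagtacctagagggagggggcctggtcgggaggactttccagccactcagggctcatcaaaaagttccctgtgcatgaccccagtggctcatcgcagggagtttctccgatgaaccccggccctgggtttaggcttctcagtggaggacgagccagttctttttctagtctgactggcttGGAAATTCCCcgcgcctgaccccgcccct
Nfkbie: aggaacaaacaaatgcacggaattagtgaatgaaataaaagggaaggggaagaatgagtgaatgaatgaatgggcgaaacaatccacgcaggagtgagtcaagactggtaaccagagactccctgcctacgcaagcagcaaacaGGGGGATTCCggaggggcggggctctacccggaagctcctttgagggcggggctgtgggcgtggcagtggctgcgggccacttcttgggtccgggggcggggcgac
Rel: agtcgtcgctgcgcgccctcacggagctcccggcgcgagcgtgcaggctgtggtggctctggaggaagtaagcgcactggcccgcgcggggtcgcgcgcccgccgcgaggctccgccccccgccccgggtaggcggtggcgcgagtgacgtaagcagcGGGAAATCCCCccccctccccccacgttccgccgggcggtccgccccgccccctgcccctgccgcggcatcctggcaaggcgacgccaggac
Nfkb2: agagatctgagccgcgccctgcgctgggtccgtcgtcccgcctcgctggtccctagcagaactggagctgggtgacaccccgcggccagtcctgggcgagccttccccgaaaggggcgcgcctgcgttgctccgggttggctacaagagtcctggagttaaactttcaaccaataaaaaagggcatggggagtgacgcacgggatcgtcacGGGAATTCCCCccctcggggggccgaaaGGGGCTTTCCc
Counted from the start site, the match lay at -29 to -20 in Nfkbia and at -106 to -97 in Nfkbie. In Rel overlapping matches covered -92 to -82, and in Nfkb2 matches covered -39 to -29 and -11 to -2. These matches describe the letters in the windows only, and binding was not measured in these libraries.

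On the genome build used by the authors, mm9, the genes lie on 7 chromosomes, with positions taken from the GENCODE vM1 annotation and the strand in parentheses. The subunit genes are Nfkb1 at chr3:135247619-135354511 (-), Nfkb2 at chr19:46379227-46386580 (+), Rel at chr11:23641514-23670970 (-), Rela at chr19:5637483-5648130 (+) and Relb at chr7:20191566-20214787 (-). The inhibitor genes are Nfkbia at chr12:56590398-56593634 (-), Nfkbib at chr7:29543270-29552531 (-), Nfkbie at chr17:45692665-45700118 (+), Nfkbiz at chr16:55811488-55839012 (-) and Bcl3 at chr7:20393811-20408119 (-). Relb, Bcl3 and Nfkbib share chromosome 7, and Nfkb2 and Rela share chromosome 19. The values cover whole genes, and isoforms were not separated.

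The libraries held between 6781952 and 28289498 expected counts. Of the macrophage markers, 7 of 8 were listed, and their summed abundance is given in TPM, which is abundance per unit of transcript length scaled to a fixed total in each library. It moved with the groups, between 22865.4 and 24626 TPM in unstimulated cells, 28926 and 29055 after JQ1, 14069.6 and 15492 after LPS, and 19568 and 22550.4 in LPS + JQ1. Most of the sum was Lyz2, with means of 18407, 24665 and 10214 TPM in the first 3 of these groups. Single markers differed in direction. After JQ1, Csf1r, Adgre1, Cd68 and Itgam (309 to 86.3 TPM) were lower and Mertk and Cd14 higher. After LPS, Cd14 (590 to 1736 TPM) and Adgre1 were higher and the others lower. The 4 T and NK cell markers were at or under 3 counts in every library, and the summed TPM was at most 0.89 for B cell, 5.24 for dendritic cell, 0.52 for mast cell and 9.63 for stromal cell markers, the dendritic sum being 0.36 to 1.57 at rest and 4.06 to 5.24 after LPS. In the LPS and LPS + IL-10 groups the library of mouse 3 stood furthest from the others, with a chi-square per degree of freedom of 26.1 to 30.5 against it and 4.14 to 11.2 between all other replicates. Neutrophil markers summed to 23.2 to 84.2 TPM in unstimulated cells and 7.46 to 16.9 after JQ1, and to 35.5 to 50.8 after LPS and 13.0 to 29.6 in LPS + JQ1, with Ly6g, Mpo and Elane at or under 3 counts throughout. The ribosomal precursor Rn45s took 9.13% to 11.02% of the counts in unstimulated cells and 5.54% to 7.07% after LPS. The part of these shifts in the results was not tested. Reads of Il10 were counted in all groups, between 27.1 and 177 normalised counts, and the part of the gene that is deleted is not given in the sources used here. The unstimulated library of mouse 1 stood above those of the other 2 mice for 9 of the 10 genes, so results that rest on it are given with and without it. In such bulk samples fewer cells of a type and less RNA per cell cannot be told apart.

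Before stimulation Nfkbia was the most abundant of the 10 genes per unit of transcript length, at 123 ± 27.1 TPM (SD, n = 3). Rela followed at 93.3 ± 7.78 TPM, above Nfkb1 at 73.2 ± 6.15 and Nfkb2 at 65.1 ± 13.9 TPM, and the libraries of these last 2 genes overlapped. Nfkbib, Relb and Bcl3 formed a middle group with means of 39.6, 37.5 and 35.7 TPM, each overlapping its neighbour. Rel, Nfkbie and Nfkbiz were lowest, with means of 21.2, 20.9 and 19.5 TPM, and their libraries overlapped as well. Resting BMDMs thus held most transcript for the inhibitor IkB-alpha and the subunit p65, the products of Nfkbia and Rela. After LPS the order changed. Nfkbia stayed first at 1918 ± 26.8 TPM, Nfkb1 and Nfkb2 came next at 769 ± 5.86 and 759 ± 33.2 TPM with overlapping libraries, and Nfkbiz rose to the fourth place at 611 ± 45.2 TPM. Rela, second before LPS, was seventh at 203 ± 10.6 TPM, overlapping Rel at 201 ± 25.1 TPM, and Bcl3 was last at 96.2 ± 8.38 TPM.

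**Figure D1:**
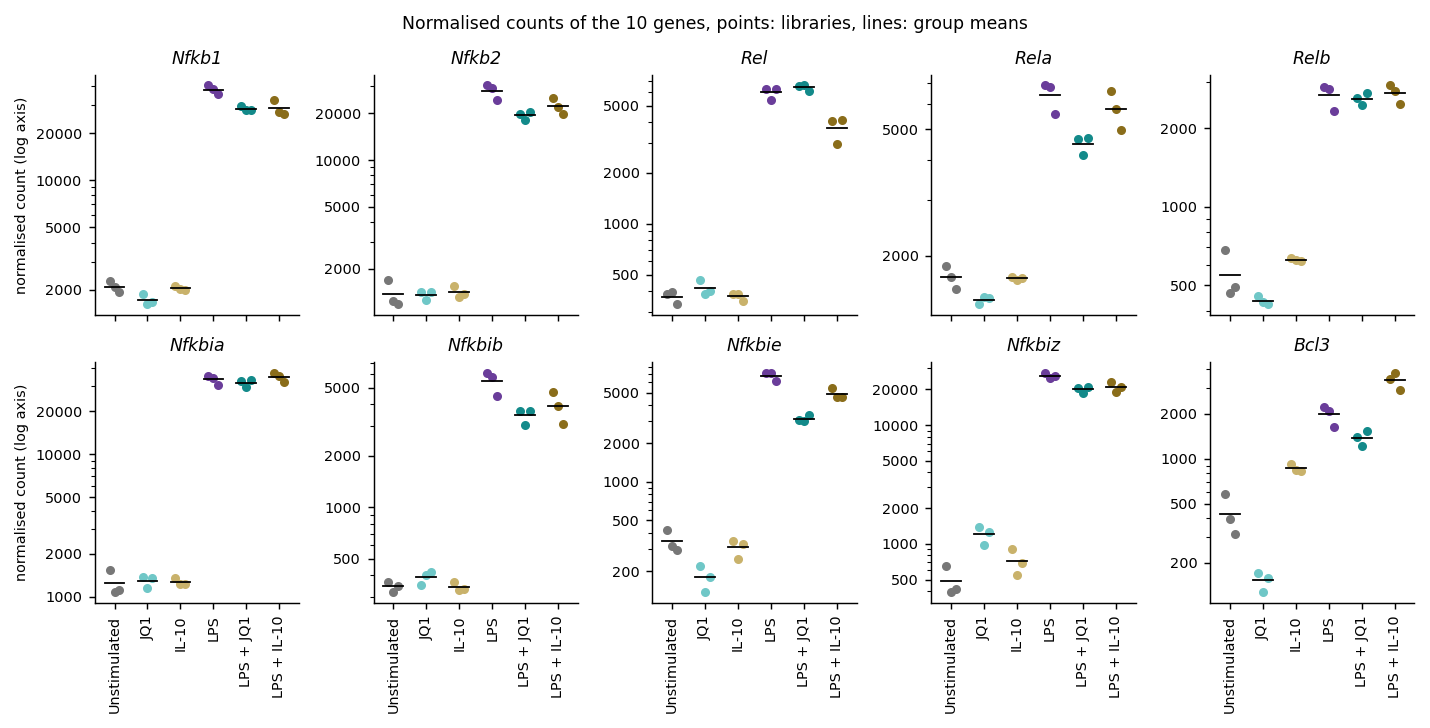
Normalised counts of the 10 genes in the 18 libraries, with the 6 groups on the horizontal axis and a logarithmic vertical axis whose range differs between panels. Points are libraries, in the order of mice 1 to 3, and lines are group means of 3. In every panel the 9 LPS-stimulated libraries lie above the 9 others.

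LPS raised all 10 genes (DESeq2, adjusted p under 0.05 over all genes tested). Of the 14965 genes tested, 64.5% were called in either direction and 31.6% were called higher. The median log2 fold change of the 10 genes was 4.10, beside -0.03 for all 11390 expressed genes. The groups did not overlap for any of the 10 genes, as was the case for 80.7% of expressed genes. Among the 10, the adjusted p was highest for Bcl3, at 9.22e-34. These rises were of unequal size, from 3.74-fold for Rela to 53.2-fold for Nfkbiz.

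Of the subunit genes, Nfkb2, Nfkb1 and Rel rose most. Normalised counts of Nfkb2 in mice 1, 2 and 3 were 1695, 1248 and 1187 in unstimulated cells and 30097, 29017 and 24337 with LPS, a 20.2-fold rise (log2 fold change 4.33, SE 0.13). Those of Nfkb1 went from 2274, 2068 and 1949 to 40200.1, 38102 and 35216, a rise of 4.17 on the log2 scale (SE 0.086). Rel, which encodes c-Rel, went from 383, 394 and 334 to 6282, 5397 and 6295, a 16.3-fold rise (4.02, SE 0.12). Each LPS library of these 3 genes exceeded each unstimulated library by more than an order of magnitude. Relb and Rela rose far less. Counts of Relb, the partner of p52 in the noncanonical pathway, were 680.4, 467 and 492 before and 2883, 2816 and 2327 after LPS, a 4.86-fold rise (2.28, SE 0.12). Counts of Rela were 1855, 1712 and 1577 and 6856, 6800.4 and 5588, a 3.74-fold rise (1.90, SE 0.10). The LPS libraries again lay above all unstimulated libraries, with mouse 3 lowest of the LPS libraries in both genes.

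The classical inhibitor genes all rose steeply. Nfkbia went from 1534, 1082 and 1111 to 35014, 34362 and 30719, a 26.8-fold rise (4.74, SE 0.12). Nfkbie, which encodes IkB-epsilon, went from 420.4, 313 and 294 to 7093, 7096 and 6205, a 19.8-fold rise (4.31, SE 0.15). Nfkbib, which encodes IkB-beta, went from 366, 319.7 and 348 to 6068, 5738 and 4483, a 15.7-fold rise (3.97, SE 0.15). The atypical genes marked the ends of the range among the inhibitors. Nfkbiz, needed for a set of secondary response genes such as Il6 and Il12b, went from 647, 394 and 418 to 27354, 24711 and 25948 (5.73, SE 0.18). Bcl3 went from 579, 391 and 312 to 2223, 2103 and 1644, a 4.65-fold rise (2.22, SE 0.18). For both genes the highest unstimulated library was that of mouse 1.

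LPS also raised all 10 genes in cells pretreated with JQ1 and in cells pretreated with IL-10. Against the matching unstimulated group, 58.6% of genes were called with JQ1, 27.6% higher, and 67.0% with IL-10, 33.2% higher, and the median log2 fold changes of the 10 genes were 3.89 and 3.66. The size of these rises depended on the scaling between libraries. Scaled to total counts, the log2 rise without pretreatment was 4.81 for Nfkbiz, 3.81 for Nfkbia, 1.35 for Relb and 0.98 for Rela, with the median of all expressed genes at -0.96, and all 10 genes were still called higher. Over all genes the calls went from 4728 higher and 4928 lower to 2223 higher and 8858 lower.

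**Figure D2:**
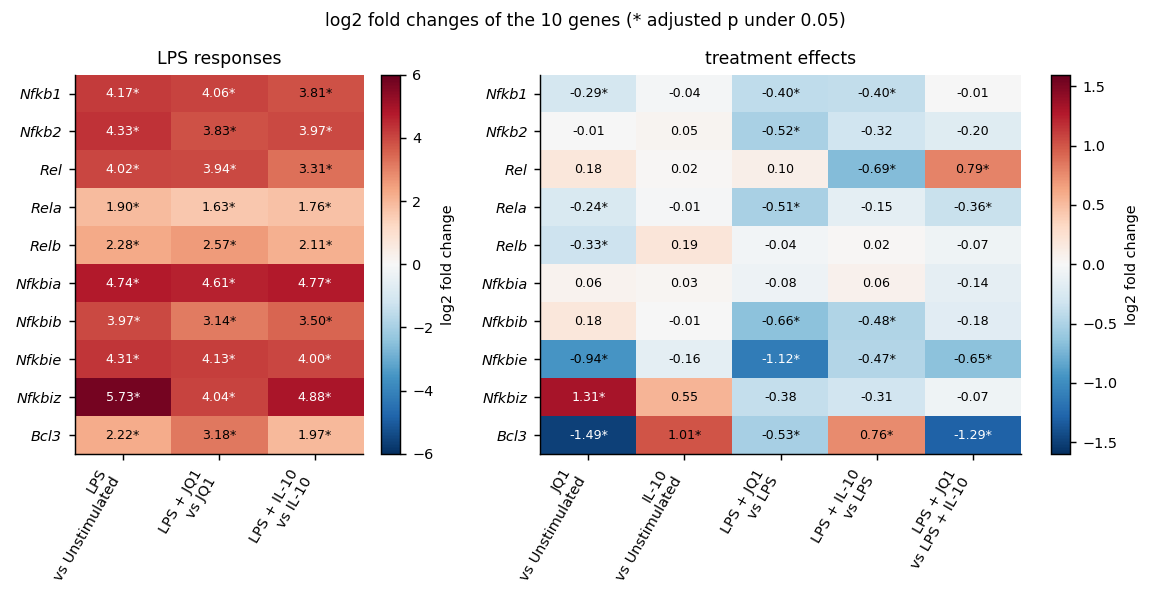
log2 fold changes of the 10 genes (rows) in 8 comparisons (columns), with LPS responses on the left and effects of JQ1 and IL-10 on the right, on separate colour scales from blue (lower in the group named first) to red (higher). Asterisks mark a DESeq2 adjusted p under 0.05. All entries on the left are called, whereas on the right Bcl3 has opposite signs with JQ1 and IL-10.

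The unequal rises changed the make-up of the subunit transcripts. These shares are ratios of TPM values within a library, so the scaling between libraries does not enter them. With 3 libraries against 3, the exact two-sided permutation test cannot give a p under 0.1, and it gave 0.1 wherever the groups did not overlap. Rela made up 30.7, 33.4 and 32.7% of the summed TPM of the 5 subunits in unstimulated cells and 9.96, 10.4 and 9.52% with LPS. The share of Relb went from a mean of 12.8 ± 1.36% to 5.22 ± 0.214% (SD, n = 3). Together, the precursor genes Nfkb1 and Nfkb2 went from 47.6 ± 0.777% to 75.0 ± 0.684%. None of these pairs of groups overlapped. By TPM, the transcripts that encode transactivating subunits were thus a narrow majority of the subunit pool before LPS and the minority after it. That majority depended on length scaling. In expected counts of unstimulated cells the precursor genes were the larger part, with means of 2359 for Nfkb1 and 1569 for Nfkb2. Rela, Relb and Rel had 1923, 631 and 409.

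The share of Rel was highest in LPS + JQ1. It made up 7.35 ± 0.721% of the subunit TPM at rest, 9.25 ± 0.622% with JQ1 and 7.22 ± 0.373% with IL-10. After LPS its share was 9.61, 8.67 and 11.3% without pretreatment, 13.5, 14.5 and 12.8% after JQ1 and 7.48, 6.36 and 9.30% after IL-10. The LPS + JQ1 libraries lay above all others in the 18, and above those of LPS + IL-10 (exact permutation p = 0.1). The LPS and LPS + IL-10 libraries overlapped (exact permutation p = 0.2, which does not use the pairing), but within each of the 3 mice the share was lower with IL-10. Nfkb2 had the complementary shift, with 37.2 ± 1.30% in LPS and 33.7 ± 1.26% in LPS + JQ1.

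**Figure D3:**
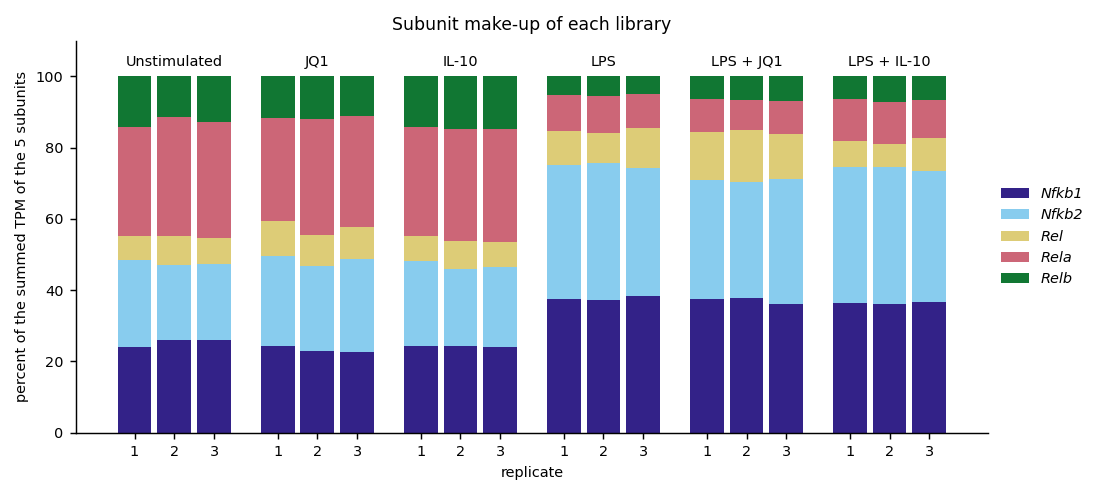
Share of each subunit gene in the summed TPM of the 5 subunits (vertical axis, percent), with a bar for each library and replicates 1 to 3 side by side in the 6 groups. Nfkb1 and Nfkb2 fill a mean of 47.6% of the unstimulated bars and 75.0% of the LPS bars, while Rela goes from a mean of 32.3% to 9.95%.

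The balance of inhibitor to subunit transcript was described by the ratio of the summed TPM of Nfkbia, Nfkbib and Nfkbie to that of the 5 subunits. It was 0.668, 0.582 and 0.638 in unstimulated cells and 1.23, 1.25 and 1.23 with LPS. In LPS + JQ1 it was 1.37, 1.33 and 1.41. In LPS + IL-10 it was 1.46, 1.59 and 1.50. All LPS + JQ1 libraries lay above all LPS libraries and below all LPS + IL-10 libraries (exact permutation p = 0.1 for each, the smallest possible). Without LPS the ratio was 0.716 ± 0.0335 with JQ1, above the unstimulated libraries (p = 0.1, exact), and 0.624 ± 0.0232 with IL-10, within them (p = 1, exact). Nfkbia carried most of it. Its share of the classical inhibitor TPM was 66.8 ± 2.06% at rest, 76.1 ± 1.04% after LPS alone, and after LPS 84.2 ± 0.446% in cells pretreated by JQ1 and 82.2 ± 1.43% in those pretreated by IL-10. The share of Nfkbie was lower in LPS + JQ1, at 5.16 ± 0.201% beside 9.59 ± 0.147% in LPS. Values of a ratio of mRNA say nothing of the proteins, which were not measured in these files.

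**Figure D4:**
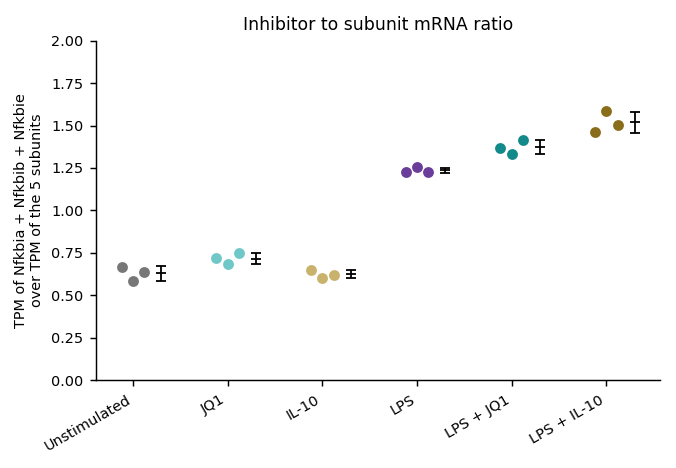
Ratio of the summed TPM of Nfkbia, Nfkbib and Nfkbie to the summed TPM of the 5 subunit genes (vertical axis, no unit) in the 6 groups. Points are libraries in the order of mice 1 to 3, and the black marks are the mean ± SD of 3. The LPS libraries lie near 1.24, and those of LPS + JQ1 and LPS + IL-10 lie above them.

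Without LPS, JQ1 changed 6 of the 10 genes, 1 higher and 5 lower. Of all genes tested 45.7% were called in this comparison, 21.9% higher and 23.7% lower. That is 3001 genes higher and 3247 lower, or 1670 and 4568 with total counts, under which the same counts of 1 higher and 5 lower held for the 10 genes. The groups did not overlap for 6 of the 10, beside 64.6% of expressed genes. Nfkbiz was the gene that rose. Its normalised counts were 647, 394 and 418 in unstimulated cells and 1399, 984 and 1260.2 with JQ1, with every JQ1 library above every unstimulated one (2.49-fold, log2 fold change 1.31, SE 0.18, adjusted p = 4.13e-12). The steepest fall was in the other atypical gene. Bcl3 had 579, 391 and 312 normalised counts in unstimulated cells and 171, 127 and 158 with JQ1, and the groups did not overlap (2.81-fold lower, log2 fold change -1.49, SE 0.19, adjusted p = 8.65e-14). Nfkbie also fell, from 420.4, 313 and 294 to 219.7, 137 and 179, again without overlap (1.92-fold lower, log2 fold change -0.94, SE 0.16, adjusted p = 8.37e-08). The falls of Nfkb1 (-0.29, adjusted p = 0.00328), Relb (-0.33, adjusted p = 0.0189) and Rela (-0.24, adjusted p = 0.0499) were small.

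These 3 small falls depended on the scaling and on single libraries. With total counts they were larger, at -0.46 for Nfkb1, -0.51 for Relb and -0.42 for Rela, and on the log2(TPM + 1) scale they were -0.48, -0.49 and -0.44, all called. Without the unstimulated library of mouse 1 the value was -0.14 (adjusted p = 0.341) for Relb and -0.18 (adjusted p = 0.233) for Rela. Rela also lost its call without the unstimulated library of mouse 2, at -0.24 (adjusted p = 0.0945), without all libraries of mouse 1, at -0.15 (adjusted p = 0.414), or of mouse 2, at -0.25 (adjusted p = 0.202). Relb lost its call without the libraries of mouse 1, at -0.17 (adjusted p = 0.39), and Nfkb1 without those of mouse 2, at -0.25 (adjusted p = 0.128). The changes of Nfkbiz, Bcl3 and Nfkbie were called in each of these fits. The remaining genes did not pass the test, with Nfkbia at 0.06 (95% interval -0.17 to 0.29, adjusted p = 0.721), Nfkb2 at -0.01 (95% interval -0.27 to 0.24, adjusted p = 0.961), Rel at 0.18 (95% interval -0.07 to 0.43, adjusted p = 0.268) and Nfkbib at 0.18 (95% interval -0.12 to 0.48, adjusted p = 0.362). Nfkbia was called higher, at 0.24 (adjusted p = 0.0375), once the unstimulated library of mouse 1 was left out.

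During LPS stimulation, 6 of the 10 genes were lower with JQ1 and none was higher, where 57.3% of all genes tested were called, 24.4% higher and 32.9% lower. The groups did not overlap for 7 of the 10, beside 71.2% of expressed genes. The median log2 fold change of the 10 genes was -0.46, beside -0.09 for all expressed genes. Nfkbie fell most, from 7093, 7096 and 6205 in LPS to 3062, 2983 and 3329.8 in LPS + JQ1 (2.18-fold lower, log2 fold change -1.12, SE 0.15, adjusted p = 2.14e-13). Nfkbib went from 6068, 5738 and 4483 to 3636, 3023 and 3659.7 (log2 fold change -0.66, SE 0.14, adjusted p = 9.16e-06). Neither pair of groups overlapped. Among the subunits, Nfkb2 went from 30097, 29017 and 24337 to 19834, 17939.5 and 20450.2 (log2 fold change -0.52, SE 0.13, adjusted p = 0.0001), Rela from 6856, 6800.4 and 5588 to 4662, 4132 and 4678 (log2 fold change -0.51, SE 0.10, adjusted p = 1.56e-06) and Nfkb1 from 40200.1, 38102 and 35216 to 29803, 27973 and 28210.2 (log2 fold change -0.40, SE 0.084, adjusted p = 5.46e-06), each without overlap. Bcl3 had 2223, 2103 and 1644 normalised counts in LPS and 1410.3, 1209 and 1525 in LPS + JQ1, also without overlap (log2 fold change -0.53, SE 0.18, adjusted p = 0.00635), but without the libraries of mouse 2 it was -0.39 (adjusted p = 0.152).

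Nfkbia, the main feedback inhibitor, and the c-Rel gene did not pass the test. Nfkbia had 35014, 34362 and 30719 normalised counts in LPS and 32279, 29707 and 33016 in LPS + JQ1, with overlapping groups and a log2 fold change of -0.08 (95% interval -0.30 to 0.15, adjusted p = 0.6). Rel had 6282, 5397 and 6295 and 6521, 6574 and 6104, again overlapping, and a value of 0.10 (95% interval -0.13 to 0.32, adjusted p = 0.501). Relb stood at -0.04 (95% interval -0.27 to 0.18, adjusted p = 0.779). Nfkbiz narrowly missed the threshold. It had 27354, 24711 and 25948 in LPS and 20406, 18627 and 20940.1 in LPS + JQ1 without overlap, and its log2 fold change was -0.38 (95% interval -0.72 to -0.04, adjusted p = 0.0528). With the mice as a block its value was -0.38 (adjusted p = 0.00201). It was also called without the libraries of mouse 1, at -0.36 (adjusted p = 0.0176). The same held without the unstimulated library of mouse 1 or of mouse 2, at -0.37 (adjusted p = 0.0178) and -0.37 (adjusted p = 0.0493). With TMM scaling (a trimmed mean of ratios) Nfkbiz was further from the threshold, at -0.26 (adjusted p = 0.209).

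Most of these calls depended on the scaling, as did the sign for Nfkbia and Relb, whereas the 6 genes called lower had negative values under each scaling. Median-of-ratios scaling put the median expressed gene at -0.09 in LPS + JQ1 against LPS, and total-count scaling put it at 0.29. With total counts, 3 of the 10 genes were called higher and 1 lower, in place of 0 and 6. Nfkbie was lower under both, and in TPM, at -0.75 with total counts and -0.81 on the log2(TPM + 1) scale. Rel, Relb and Nfkbia were called higher with total counts, at 0.47 (adjusted p = 7.36e-05), 0.33 (adjusted p = 0.00635) and 0.30 (adjusted p = 0.0155). Nfkb1, Nfkb2, Rela, Nfkbib and Bcl3 had values between -0.28 and -0.02 there and none was called, nor was Nfkbiz. On the log2(TPM + 1) scale 2 of the 10 were called higher, Rel and Relb, and 3 lower, Nfkbie, Nfkbib and Rela. In each of the 4 scalings Nfkbie had the lowest value of the 10 genes and Rel the highest. Over all genes the split moved from 3491 higher and 4718 lower to 5524 higher and 2994 lower with total counts.

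**Figure D5:**
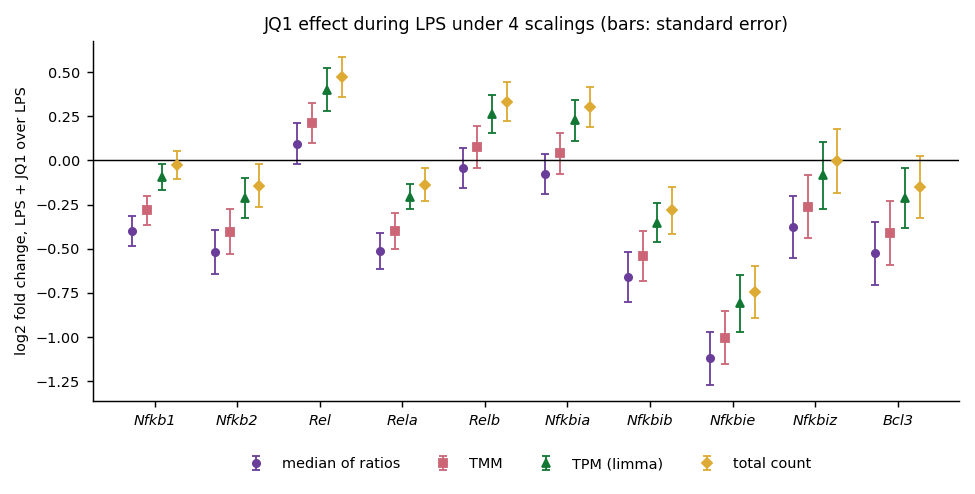
log2 fold change of LPS + JQ1 over LPS (vertical axis) for the 10 genes under 4 scalings between libraries, with the SE as bars. Circles are median of ratios, squares TMM (a trimmed mean of ratios), triangles limma on log2(TPM + 1) and diamonds total counts. Values shift upward together from circles to diamonds, with Nfkbie at -1.12 and -0.75 and Rel at 0.10 and 0.47 at the 2 ends.

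Without LPS, IL-10 changed only Bcl3 among the 10 genes, and 2.81% of all genes tested were called, 1.80% higher. It was also the only one of the 10 whose groups did not overlap, beside 17.9% of expressed genes. Bcl3 had 579, 391 and 312 normalised counts in unstimulated cells and 928, 838 and 823 with IL-10, with every IL-10 library higher (2.02-fold, log2 fold change 1.01, SE 0.18, adjusted p = 5.7e-06). Nfkbiz had 647, 394 and 418 and 899.6, 551 and 685, which overlapped between mice but were higher with IL-10 within each mouse, and its value was 0.55 (95% interval 0.19 to 0.90, adjusted p = 0.0797). With the mice as a block Nfkbiz was called, at 0.55 (adjusted p = 0.000599), as it was without the unstimulated library of mouse 1, at 0.81 (adjusted p = 0.000211), or without all libraries of mouse 1, at 0.60 (adjusted p = 0.00562). Relb was called as well without the unstimulated library of mouse 1, at 0.39 (adjusted p = 0.016), against 0.19 (95% interval -0.05 to 0.43, adjusted p = 0.761) with it. The other 7 genes had log2 fold changes between -0.16 and 0.05.

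During LPS stimulation, IL-10 lowered 4 of the 10 genes and raised Bcl3, where 17.2% of all genes tested were called, 8.38% higher (959 genes) and 8.81% lower (1009), or 1511 and 615 with total counts. The groups did not overlap for 5 of the 10, beside 26.1% of expressed genes. This comparison shares the LPS libraries with that of JQ1. Rel fell most, from 6282, 5397 and 6295 in LPS to 4042, 2947 and 4116 in LPS + IL-10, and the groups did not overlap (1.62-fold lower, log2 fold change -0.69, SE 0.11, adjusted p = 5.36e-08). Nfkb1 went from 40200.1, 38102 and 35216 to 32302, 27378 and 26630.0, also without overlap (log2 fold change -0.40, SE 0.084, adjusted p = 4.2e-05). Nfkbie was lower in all LPS + IL-10 libraries, at 5479, 4613 and 4624 (log2 fold change -0.47, SE 0.15, adjusted p = 0.0117), while those of Nfkbib overlapped with LPS, at 4699.9, 3913 and 3056 (log2 fold change -0.48, SE 0.14, adjusted p = 0.0057). Without the libraries of mouse 2 3 calls were lost, with Nfkb1 at -0.35 (adjusted p = 0.0643), Nfkbib at -0.44 (adjusted p = 0.175) and Nfkbie at -0.40 (adjusted p = 0.133). Nfkbie was also lost without mouse 3, at -0.49 (adjusted p = 0.277). With total counts or TPM Nfkbie was not called either, at -0.38 (adjusted p = 0.0609) with total counts. Rel and Bcl3 were called in each of these fits.

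Bcl3 was the single gene of the 10 that rose with IL-10 in the presence of LPS. It had 2223, 2103 and 1644 normalised counts in LPS and 3452, 3758 and 2916 in LPS + IL-10, and no library of the first group reached those of the second (1.70-fold, log2 fold change 0.76, SE 0.18, adjusted p = 0.000237). Nfkbia was at 0.06 (95% interval -0.16 to 0.28, adjusted p = 0.809), Relb at 0.02 (95% interval -0.20 to 0.25, adjusted p = 0.936) and Rela at -0.15 (95% interval -0.35 to 0.05, adjusted p = 0.367). Nfkb2 missed the threshold, at -0.32 (95% interval -0.57 to -0.07, adjusted p = 0.06), but was called with the mice as a block, at -0.32 (adjusted p = 0.0075), or without the libraries of mouse 1, at -0.36 (adjusted p = 0.0242), or without the unstimulated library of mouse 1, at -0.32 (adjusted p = 0.0122). Nfkbiz, at -0.31 (95% interval -0.65 to 0.03, adjusted p = 0.255), was also called with the block, at -0.32 (adjusted p = 0.0327).

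Set against each other during LPS, the 2 pretreatments differed for 4 of the 10 genes, where 55.3% of all genes tested were called, 23.8% higher with JQ1 (3404 genes) and 31.6% lower (4523), or 4961 and 3139 with total counts. The libraries of these 4 genes did not overlap, beside 68.7% of expressed genes. Rel was higher with JQ1 than with IL-10 (1.73-fold, log2 fold change 0.79, SE 0.11, adjusted p = 3.37e-11). Bcl3 was lower with JQ1 (2.44-fold, log2 fold change -1.29, SE 0.18, adjusted p = 2e-12). Nfkbie was lower with JQ1 too (log2 fold change -0.65, SE 0.15, adjusted p = 3.47e-05), as was Rela (log2 fold change -0.36, SE 0.10, adjusted p = 0.00101), though Rela was -0.30 (adjusted p = 0.0878) without the libraries of mouse 2 and -0.08 (adjusted p = 0.505) with total counts, and was not called on the TPM scale. Nfkb1, lowered by both pretreatments against LPS, stood at -0.01 (95% interval -0.17 to 0.16, adjusted p = 0.972), but was called higher with JQ1 under total counts, at 0.28 (adjusted p = 0.00103). Nfkbia was at -0.14 (95% interval -0.36 to 0.08, adjusted p = 0.31), Relb at -0.07 (95% interval -0.29 to 0.16, adjusted p = 0.664) and Nfkbiz at -0.07 (95% interval -0.41 to 0.27, adjusted p = 0.773). Nfkb2 and Nfkbib, at -0.20 and -0.18, were called lower with JQ1 without the libraries of mouse 3, at -0.31 (adjusted p = 0.0371) and -0.37 (adjusted p = 0.00756).

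An interaction term tested whether each pretreatment acted differently with and without LPS. For JQ1 it passed for 4 of the 10 genes, where 41.5% of all genes tested were called, 17.7% positive (2250 genes) and 23.8% negative (3029), or 5964 and 1023 with total counts. Nfkbiz had the largest, at -1.69 (SE 0.25, adjusted p = 2.16e-10), with a log2 fold change by JQ1 of 1.31 at rest and -0.38 during LPS. Bcl3 had the opposite sign, at 0.96 (SE 0.26, adjusted p = 0.000909), its fall with JQ1 being -1.49 at rest and -0.53 during LPS. Both were called in all 14 other fits. Nfkbib (-0.84, adjusted p = 0.00026) and Nfkb2 (-0.51, adjusted p = 0.0145) passed as well, but without the libraries of mouse 2 they were -0.64 (adjusted p = 0.0628) and -0.41 (adjusted p = 0.197). With total counts Nfkbib was -0.28 (adjusted p = 0.233) and Nfkb2 0.04 (adjusted p = 0.856), and 5 genes were then called positive and 1 negative. Nfkb2 was also -0.44 (adjusted p = 0.0585) without the unstimulated library of mouse 2 and -0.38 (adjusted p = 0.0849) in edgeR. Relb, not called at 0.29, was called in edgeR, at 0.42 (adjusted p = 0.0419), and with TMM, at 0.42 (adjusted p = 0.0414). It was called with total counts too, at 0.84 (adjusted p = 2.01e-06), and on the log2(TPM + 1) scale, at 0.76 (adjusted p = 0.000525). Nfkbia was called without the unstimulated library of mouse 1, at -0.31 (adjusted p = 0.0397).

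For IL-10 the interaction passed for Rel (-0.71, SE 0.17, adjusted p = 0.00105), Nfkbiz (-0.86, adjusted p = 0.0125) and Nfkb1 (-0.36, adjusted p = 0.0404), where 7.44% of all genes tested were called, 4.00% positive (432 genes) and 3.44% negative (372), or 690 and 248 with total counts. Rel was at 0.02 with IL-10 at rest and -0.69 during LPS. Its interaction was called in all other fits. Nfkbiz was -0.78 (adjusted p = 0.463) without the libraries of mouse 3 and -0.73 (adjusted p = 0.0654) without the unstimulated library of mouse 2. It also lost its call with limma, at -0.79 (adjusted p = 0.114) on log2(TPM + 1) and -0.82 (adjusted p = 0.121) on log2(TPM + 0.1). Nfkb1 lost its call in 9 of 14 other fits, among them those without the libraries of mouse 2, at -0.32 (adjusted p = 0.675), or of mouse 3, at -0.32 (adjusted p = 0.246), and without the unstimulated library of mouse 2, at -0.35 (adjusted p = 0.102). Nfkb2 passed only without the unstimulated library of mouse 1, at -0.55 (adjusted p = 0.00938).

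The genes around the family were followed in 5 lists by known role. The shares of all genes called, against which the counts are to be read, were 31.6% higher and 32.9% lower with LPS, 24.4% and 32.9% with JQ1 during LPS, and 8.38% and 8.81% with IL-10 during LPS. Of 10 kinases and adaptors upstream of NF-kB, 8 rose and 2 fell with LPS, with a median of 0.88, but with total counts 5 rose and 5 fell. Ikbke, which encodes the IKK-related kinase IKK-epsilon, rose (log2 fold change 3.47, SE 0.12, adjusted p = 1.96e-169). Map3k14, which encodes the noncanonical kinase NIK, fell 8.27-fold, from 548, 553 and 471 normalised counts in unstimulated cells to 72.1, 70.3 and 46.7 with LPS (log2 fold change -3.05, SE 0.15, adjusted p = 6.78e-91). In LPS + JQ1 it had 385, 380.2 and 368, all above the LPS libraries (6.00-fold, log2 fold change 2.58, SE 0.15, adjusted p = 4.53e-63), and it was higher with total counts too, at 2.96. Ikbke fell with JQ1 during LPS (log2 fold change -1.53, SE 0.12, adjusted p = 9.12e-35), and its value was -1.15 with total counts. In that comparison 2 of the 10 rose and 6 fell, or 4 and 5 with total counts, and with IL-10 during LPS 3 fell and none rose.

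Of 9 genes for the turnover of IkB proteins and of NIK, 6 rose and 2 fell with LPS. Birc3, which encodes the ubiquitin ligase cIAP2, rose 10.8-fold (log2 fold change 3.43, SE 0.12, adjusted p = 4.05e-188). With JQ1 during LPS 6 of the 9 fell and 1 rose, or 3 and 3 with total counts, where 32.9% of all genes were called lower and 24.4% higher. Birc3 was lowest (log2 fold change -1.35, SE 0.11, adjusted p = 1.14e-31), followed by the related cIAP1 gene Birc2 (log2 fold change -0.96, SE 0.17, adjusted p = 9.93e-08), and Traf3, a partner of cIAP proteins in the degradation of NIK, was the gene that rose (log2 fold change 0.38, SE 0.12, adjusted p = 0.00344). With IL-10 during LPS 1 of the 9 rose and 1 fell, or 3 and 1 with total counts, and these were Traf3 (log2 fold change 0.45, SE 0.12, adjusted p = 0.00195) and Fbxw11, which encodes a subunit of the ligase for IkB proteins (log2 fold change -0.30, SE 0.077, adjusted p = 0.000908). Of 7 genes for nuclear partners and further IkB-like proteins, 4 rose and 1 fell with LPS, or 2 and 5 with total counts. Nfkbid, an atypical IkB gene outside the 10, went from a mean of 217 to 838 normalised counts with LPS and was 4.42-fold lower in LPS + JQ1 (log2 fold change -2.14, SE 0.15, adjusted p = 4.55e-45). Pdlim2, which encodes a ubiquitin ligase for p65, was 7.20-fold lower (log2 fold change -2.85, SE 0.37, adjusted p = 1.54e-13), at 60.8, 56.9 and 52.8 normalised counts in LPS and 6.63, 7.37 and 9.85 in LPS + JQ1. In LPS + IL-10 it had 101, 123 and 96.5, above the LPS libraries (log2 fold change 0.91, SE 0.22, adjusted p = 0.000564). With JQ1 during LPS 5 of the 7 were lower and 2 higher, under both scalings. Without LPS 3 of the 7 were lower with JQ1 and 1 higher, where 23.7% and 21.9% of all genes were called. Among those lower at rest were Pdlim2, with a mean of 171 normalised counts in unstimulated cells and 25.5 with JQ1, and Nfkbid, with 217 and 110.

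The list of 10 genes known as NF-kB targets had a lower median with JQ1 than the family itself, a difference that was not tested. All 10 rose with LPS, where 31.6% of all genes were called higher, and all 10 fell with JQ1 during LPS, or 9 with total counts, where 32.9% of all genes were called lower, with a median log2 fold change of -1.69 beside -0.46 for the 10 family genes. Traf1, a signalling adaptor, fell 14.1-fold (log2 fold change -3.81, SE 0.31, adjusted p = 6.36e-34) and Il1b, the precursor of interleukin 1 beta, 11.8-fold (log2 fold change -3.57, SE 0.42, adjusted p = 2.69e-16). Without LPS, JQ1 also lowered 6 of these 10 targets and raised none, with a median of -1.27. There 23.7% of all genes tested were called lower. The interaction with JQ1 was called for 3 of the 10 targets, all negative, with a median of -0.57, where 23.8% of all genes were called negative. With IL-10 during LPS 5 of the 10 fell and none rose, or 4 and 1 with total counts, with Cxcl1 at -2.15 and Cxcl2, like it a neutrophil chemokine, at -1.59. Of 6 genes known to need Nfkbiz in macrophages, 5 fell with JQ1 during LPS, among them Il6, the interleukin 6 gene, with 13638, 11195 and 17655 normalised counts in LPS and 522, 488 and 428 in LPS + JQ1 (log2 fold change -4.88, SE 0.42, adjusted p = 2.74e-30), while Nfkbiz itself was at -0.38. Csf3, which encodes G-CSF, was at 28.3, 32.1 and 39.3 in LPS and under 3 counts in LPS + JQ1. With IL-10 during LPS 2 of the 6 were called lower and 1 higher, with a median log2 fold change of -1.11. Il6 was among those lower, with 5802, 2061 and 4462 normalised counts in LPS + IL-10. The gene called higher was Lcn2, which encodes lipocalin 2 and rose 8.62-fold (log2 fold change 3.11, SE 0.37, adjusted p = 9.26e-15).

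Patterns over the 18 libraries were described by Pearson correlation of log2(normalised count + 1), among 8368 genes whose normalised counts averaged 100 or more. All points share the split into libraries with and without LPS, so high values are common, and no test is given. For 9 of the 10 genes, between 547 and 990 genes reached a correlation of 0.95, whereas for Bcl3 it was 9. The genes nearest to Bcl3 were Ctsc (0.980), Batf (0.976) and Nup93 (0.963). Nfkbia was nearest to Rhbdf2 (0.999), Nfkb1 to Nrp2 (0.999), Nfkb2 to Trex1 (0.998), Nfkbib to Tyk2 (0.998) and Nfkbie to Itga5 (0.998). Rela was nearest to Ogfr (0.997), Nfkbiz to Pim1 (0.997), Rel to Rnf19b (0.996) and Relb to Gbp5 (0.996).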

How the data were processed

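Total RNA from the 18 cultures was made into stranded, ribosomal RNA-depleted libraries. Per the methods of the study, the authors removed artefact reads with TagDust, aligned the rest to mm9 with STAR and counted genes with RSEM 1.2.31. The authors deposited the expected counts of every gene in each library, which RSEM estimated, and its TPM (abundance per transcript length, scaled to a fixed total), and the counting was run with default settings, which do not use strand, so reads from overlapping antisense genes cannot be told apart. Expected counts were rounded to whole numbers. DESeq2 1.42.0 in R 4.3.3 was fitted with group as the only term over all 18 libraries and median-of-ratios scaling, and a gene was called at a Benjamini-Hochberg adjusted p under 0.05 over all genes. Its Wald test, the pairwise test of the study (whose model formula is not given in the sources used here), gave log2 fold changes, SE and intervals at 95%. Effects of the interaction were taken from the same fit. "Expressed" means a mean normalised count of at least 10. The 10 genes were fitted within the whole table.

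Alternatives were edgeR 4.0.16 quasi-likelihood tests, TMM and total-count scaling, a low count filter of 10, the mouse as a block, the sequencing lane as a term, the compared groups alone, limma 3.58.1 on log2(TPM + 1) or log2(TPM + 0.1), and fits without the libraries of each mouse or without 1 unstimulated library. Ratios and shares of TPM were compared with two-sided exact permutation tests. The DESeq2, edgeR and limma fits were run on simulated counts in which a small set of genes changed, equally up and down, in LPS alone. A shift of most genes was not simulated, so this run does not bear on the choice of scaling. The replicate numbers pair the samples because the series describes matched samples of 3 mice, and the mean correlation of same-numbered deviations ran from -0.0454 to 0.319 over 8 comparisons. Replicates 1 were sequenced in lane 7 and replicates 3 in lane 8. Replicates 2 were in lane 7 in the groups without LPS and in lane 8 in the groups with LPS. Lane thus overlaps with mouse and in part with LPS. Totals of 6781952 to 28289498 counts limit the precision of low values, and the floor was 3 counts.

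The genes and lists were chosen with earlier results of these data known. All 10 genes are named in every comparison. From each list the number called is given with the genes of largest change among those called, and for JQ1 during LPS Traf3 was named after its values were seen. Markers were fixed as lists, of which Emr1 had no row. Promoter windows came from RefSeq (GRCm38.p6) and were searched on both strands. Proteins were not analysed here. The files held no comparisons of the authors, and no sample was left out.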

Additional observations from a re-analysis of the deposited data

Results flagged for a closer look

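The effect of a pretreatment differed between LPS-stimulated and unstimulated cells, by the interaction term of the DESeq2 fit, in 7 cases. Of all genes tested, 41.5% were called for this term with JQ1 and 7.44% with IL-10. For JQ1 the interaction on the log2 scale was -1.69 for Nfkbiz, 0.96 for Bcl3, -0.84 for Nfkbib and -0.51 for Nfkb2. For IL-10 it was -0.86 for Nfkbiz, -0.71 for Rel and -0.36 for Nfkb1. The Nfkbiz and Bcl3 values for JQ1 and the Rel value for IL-10 passed the threshold in all 14 other fits, the other 4 in some of them only.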

How the results depend on the processing

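There were 1400 values of the 10 genes over 10 comparisons and 14 other fits. Of these, 1303 kept the side of the threshold given above, and kept their direction where called. The 1303 include values called in neither fit, whose sign was not compared. A further 54 lost a call, 28 gained one and 15 had the opposite direction with a call on at least one side. All LPS responses were called in every fit.

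The 15 opposite directions with a call came from total-count and TPM scaling. For LPS + JQ1 against LPS, Relb was 0.33 with total counts and 0.26 and 0.27 with limma on log2(TPM + 1) and log2(TPM + 0.1), and Nfkbia was 0.30 with total counts. For LPS + JQ1 against LPS + IL-10, Nfkb1 was 0.28, 0.19 and 0.20 in the same order. For the interaction with JQ1, Nfkb1 was 0.44, 0.39 and 0.40, Rel was 0.47, 0.44 and 0.44, and with total counts Nfkb2 was 0.045 and Nfkbia 0.42. These scalings differ in where they put the median gene. With TMM, some values called in neither fit also changed sign. For LPS + JQ1 against LPS, Nfkbia was then 0.04 and Relb 0.07, in place of -0.08 and -0.04.

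The number of the 10 genes called with IL-10 alone was 2 with the mice as a replicate block, and 1 to 3 when libraries were left out. With IL-10 during LPS it was 2 to 6 when libraries were left out, lowest without mouse 2. For the interaction with JQ1 it was 2 to 5, lowest without mouse 2. For the interaction with IL-10 it was 1 with either limma fit and as low as 1 without mouse 3 or the unstimulated library of mouse 2. The replicate block changed 4 of 100 calls, all gained and given above, and no other. Without length scaling the ratio of inhibitor to subunit transcripts was 0.315 in unstimulated cells, 0.346 after JQ1 and 0.312 after IL-10, and during LPS 0.565 without pretreatment, 0.621 after JQ1 and 0.692 after IL-10, in the same order of groups.

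Over all genes, IL-10 alone gave 358 calls, 171 and 117 with the 2 limma fits and 130 to 196 without 1 mouse. IL-10 during LPS gave 1968, 1089 with the compared groups alone and 874 to 1249 without 1 mouse. JQ1 alone gave 6248, and 4048 without mouse 1. The interaction with JQ1 gave 5279, and 3471 without mouse 1, and that with IL-10 gave 804, 529 with limma on log2(TPM + 0.1) and 290 to 469 without 1 mouse. With 3 mice a group, the cause of each change was not tested.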

Other observations

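The order of the mice was shared over the family. In unstimulated cells 9 of the 10 genes were highest in the library of mouse 1, as were 9 with IL-10 and 8 each with JQ1, LPS and LPS + IL-10. In LPS + JQ1 this was the case for 1 of the 10 genes, and 8 were highest in the library of mouse 3. Over all 11390 expressed genes, the library of mouse 1 was the highest for between 31.01% and 36.87% of genes in each group. Of the 10 known NF-kB targets, 8 were highest in mouse 1 in LPS + JQ1 and 7 in LPS. These are counts over genes that share their libraries, and the lane of sequencing differs between mice 1 and 3 in every group.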
